A study of Mus musculus with 36 samples.

Results

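10 genes around YAP and TEAD, of 48795 gene identifiers in the count table, were followed in cultured mouse lung pericyte-like cells. They are Yap1, Wwtr1, Tead1, Lats2, Amotl1, Amotl2, Ajuba, Ankrd1, Crim1 and Nuak2, chosen by symbol and found through the Ensembl identifiers of the table. All 10 passed the filter on low counts that left 15901 genes for testing. The lowest count of any of them in any library was 181, for Nuak2.

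The cells were expanded from lung digests, depleted of cells with the endothelial, leukocyte and epithelial surface proteins CD31, CD45 and CD326, and then selected for PDGFRβ, a receptor of pericytes and fibroblasts. After culture they were given media only, or bronchoalveolar lavage fluid, the fluid washed out of the airways (BALF), of uninjured or of injured lungs. Reduced-serum medium made up the other part of each mixture in equal volume, with buffered saline instead of lavage fluid for media only. Exposure lasted 6 or 24 h. Each of these 6 groups had 3 libraries of female and 3 of male cells, so that n = 6 in each and 36 libraries entered in all. The labels give neither the kind of injury nor the strain or age of the mice. Whether libraries within a group stem from different animals or cultures is not in the labels either, and p-values here measure the spread between samples, which may be technical.

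YAP (Yap1) and TAZ (Wwtr1) are coactivators that enter the nucleus when cells are spread, stretched or on stiff matrix, and there bind TEAD factors, which supply the contact with DNA. The Hippo kinases, of which LATS2 is the last in line, phosphorylate YAP and TAZ and keep them in the cytoplasm, and angiomotin family proteins and LIM proteins such as Ajuba tune that step. Several regulators are themselves targets of YAP and TEAD, which makes a feedback loop. In the lung, YAP and TAZ are best known from epithelial repair and from matrix-producing mesenchymal cells. Activity of YAP is set largely by phosphorylation and location, which mRNA counts do not measure.

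TEAD factors bind the element GGAATG. The stretches below show each copy of it, on either strand, within 250 bases before a RefSeq start site of the 10 genes (GRCm38.p6), because a match is the sequence feature that relates to TEAD. Each is written 5′ to 3′ on the strand of its gene with the element, or its reverse complement CATTCC, in capitals.
Wwtr1: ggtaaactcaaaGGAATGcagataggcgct
Yap1: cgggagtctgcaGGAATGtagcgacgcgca
Amotl2: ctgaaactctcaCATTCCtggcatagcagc
Ajuba, first copy: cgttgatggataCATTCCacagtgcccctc
Ajuba, next copy: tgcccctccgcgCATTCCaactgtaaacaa
Crim1: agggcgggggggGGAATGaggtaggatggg
Ankrd1, first copy: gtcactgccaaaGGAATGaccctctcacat
Ankrd1, next copy: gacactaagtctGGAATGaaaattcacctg

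The stretches lie at chr3:57576029-57576058 (Wwtr1, minus strand), chr9:8004720-8004749 (Yap1, minus), chr9:102717727-102717756 (Amotl2, plus), chr14:54577830-54577859 and chr14:54577808-54577837 (Ajuba, minus), chr17:78200157-78200186 (Crim1, plus), and chr19:36120037-36120066 and chr19:36119950-36119979 (Ankrd1, minus). Those of Ankrd1 and Amotl2 fall in the untranslated region of a GENCODE M21 transcript that starts further upstream. The others fall in no exon of the genes followed here, and exons of other genes were not searched. The element was present in 6 of the 8 genes with a sequence, namely Yap1, Wwtr1, Amotl2, Ajuba, Ankrd1 and Crim1. Amotl1 and Lats2 had none in this window, and Tead1 and Nuak2 had no sequence in the table. Of 27025 genes with such a window, 14.357% held the element. The AP-1 site TGANTCA was in 0 of the 8 (7.819% of all genes) and the CArG box of SRF in 0 of the 8 (1.624%). No copy of the TEAD element overlapped either of these. A match describes the letters only, and the genes were chosen as genes of this pathway, so the share is no test.

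The libraries held 17134840 to 35991683 counts each. Within 10 of the 12 groups of treatment, sex and time, the libraries numbered 1 and 2 were nearer to each other than to number 3. In female injured BALF at 6 h, for example, the biological coefficient of variation was 7.49% between numbers 1 and 2 and 23.5% between 1 and 3. If such a pair has 1 origin, n is below 6, so calls are given also with libraries 1 and 2 summed in every group. The exceptions were female media and female uninjured BALF at 24 h, where numbers 2 and 3 were nearest (26.0% and 15.7%). Numbers 1 and 2 differed there by 36.7% and 34.4%. In these groups the sum joined less similar libraries and left the nearest pair apart, so it does not address such a pair. 4 libraries, none of injured BALF, have description numbers unlike the rest: replicate 2 of female media at 24 h, and in males replicate 3 of media at both times and of uninjured BALF at 24 h. In these 4 the macrophage marker sum was 17.4 to 20.9 CPM and the endothelial sum 9.94 to 17.7, against 38.6 to 89.2 and 29.6 to 196 in the other 32. 3 of the 4 are media libraries, so each comparison with media holds at least 1 of them, and calls of the 10 genes that end without them are named. Female media 24 h replicate 1 had 3.87% mitochondrial counts, against at most 2.05% in the other 35 libraries. The summed level of 12 pericyte markers ran from 1091 to 1914 CPM (counts as a rate of the library total after TMM scaling) in media at 6 h and from 687 to 1016 in injured BALF at 24 h. Of these markers Higd1b was at 0 in all 36 libraries. The sum of 10 fibroblast markers was higher, with a median of 21683 CPM in media at 6 h, so the libraries are described by the labelled name without a claim that they are pericytes rather than fibroblasts. The sum of 10 macrophage markers had a median of 59.6 CPM in media, 72.9 in uninjured and 69.7 in injured BALF at 6 h, and of 48.5, 67.6 and 71.0 at 24 h. Of these 10 markers, 2 were called higher than media in uninjured BALF at 6 h (Csf1r and Cd14, against 10.6% of all genes) and 1 in injured BALF at 6 h (Cd14, against 13.9%). In injured BALF at 24 h 3 were called higher (Csf1r, Cd14 and Mrc1, against 11.5% of all genes), and the marker sum lay at 63.4 to 80.2 CPM against 17.4 to 59.9 in media without overlap. Their part in the differences from media was not tested. Mesothelial markers summed to between 18.4 and 255 CPM, and the neutrophil and epithelial sums stayed at 5.71 or less. Fewer cells of a type and less RNA per cell cannot be told apart in such bulk libraries.

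Per kilobase of exon, the scale on which genes can be compared, Ankrd1 stood highest in media at 6 h at 149 ± 45.8 CPM per kilobase (mean ± SD, n = 6). It was followed by Crim1 at 80.6 ± 8.89, Amotl2 at 71.6 ± 9.91, Tead1 at 41.0 ± 4.07, Lats2 at 39.8 ± 10.4, Wwtr1 at 35.5 ± 5.76, Yap1 at 32.6 ± 4.18, Amotl1 at 22.6 ± 1.66, Ajuba at 20.4 ± 1.92 and Nuak2 at 4.36 ± 0.628. Neighbours in this order overlapped in their libraries except at 3 places: Amotl2 lay above Tead1, Yap1 above Amotl1, and Ajuba above Nuak2. Nuak2 was the lowest of the 10 in all 36 libraries, and Ankrd1 the highest in 28, with Amotl2 highest in 6 and Crim1 in 2. The coactivators and Tead1 thus overlapped in level per length, and every media library held more Ankrd1 per length than any of these 3.

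**Figure D1:**
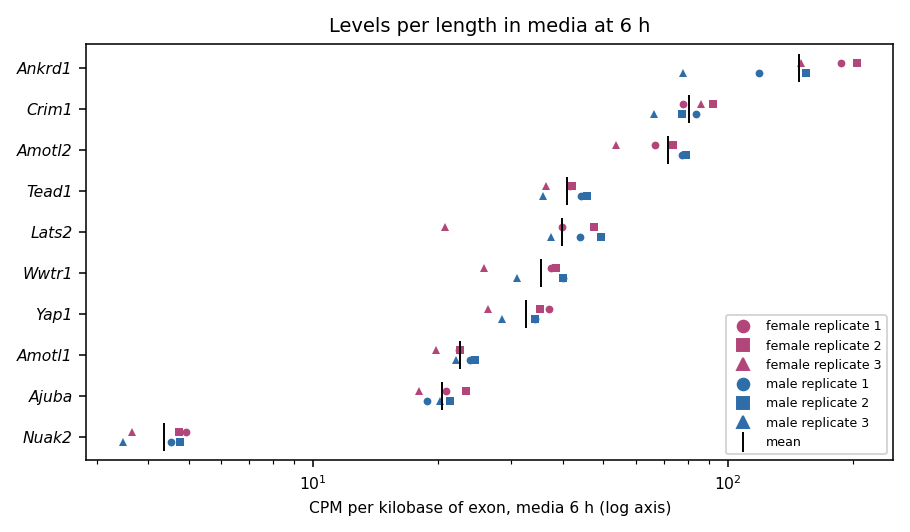
Level of each of the 10 genes in the 6 media libraries at 6 h, in CPM per kilobase of exon on a log axis, with points for libraries and a bar for the mean. Ankrd1 is highest and most spread (78.0 to 204), and Nuak2 is lowest (3.47 to 4.94) and apart from the rest.

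Between treatments 5 of the 10 genes passed the test at least once, some upward and others downward. At 6 h Nuak2 and Amotl1 were higher than in media in both BALFs, Crim1 was lower in both, and Yap1 was lower in injured BALF. At 24 h Amotl2 was lower in injured BALF than in either other group. Wwtr1, Tead1, Lats2, Ajuba and Ankrd1 passed the test in none of the 9 comparisons of treatments or times. The values of each follow, with differences as log2 fold changes ± approximate standard error from edgeR's quasi-likelihood test, adjusted over all 15901 genes by Benjamini-Hochberg and called at 0.05. Gene models overlap Tead1, Lats2, Amotl1 and Crim1 on the same strand and also Yap1 and Wwtr1 on the opposite one, and the sources used here do not give how the counting treated strand. The comparisons share libraries: media and both BALFs each enter several of them, and the calls of one are not independent of those of another.

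**Figure D2:**
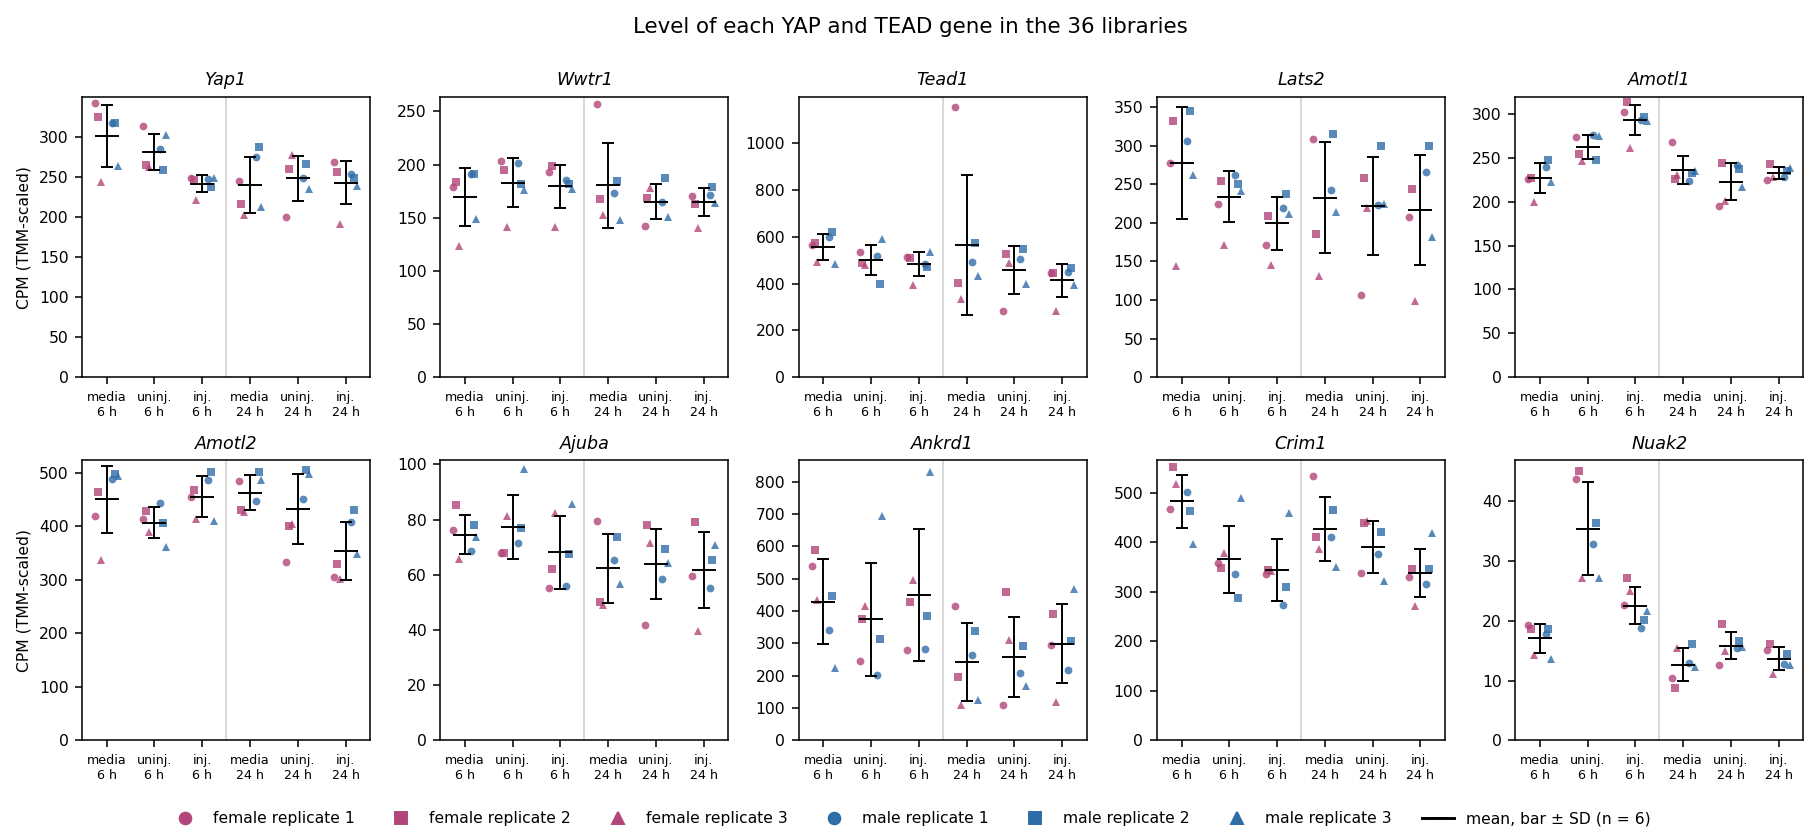
TMM-scaled CPM of each gene (vertical axes from 0) in the 36 libraries, by treatment and hours, with colour for sex, marker shape for replicate number, and mean ± SD (n = 6). Nuak2 peaks in uninjured BALF at 6 h (27.1 to 45.0), Amotl1 is raised in both BALFs at 6 h, and 1 media library at 24 h stands far above for Tead1 (1152).

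Nuak2 (ENSMUSG00000009772.15, chr1:132316126-132333488, plus strand), a target of YAP, encodes an AMPK-related kinase that acts on the actin cytoskeleton. In media at 6 h its libraries ran from 13.6 to 19.4 CPM with a median of 18.2. Uninjured BALF at 6 h gave 27.1 to 45.0 with a median of 34.7, and injured BALF 18.9 to 27.1 with a median of 22.2. Every uninjured BALF library at 6 h thus lay above every media library, and the injured BALF libraries lay between, touching both. At 24 h the range was 8.83 to 16.1 (median 12.6) in media, 12.6 to 19.5 (15.6) in uninjured BALF and 11.1 to 16.1 (13.6) in injured BALF, and the 3 groups overlapped.

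Against media at 6 h, Nuak2 rose 2.07-fold in uninjured BALF, by 1.05 ± 0.14 (edgeR adjusted p = 6.4e-06). The difference of mean log2 levels was 1.12 in female and 0.95 in male libraries. The call held without each of the 12 libraries in turn. In injured BALF the rise over media was 0.40 ± 0.14 (edgeR adjusted p = 0.038), and it was not past the threshold (adjusted p = 0.056 to 0.11) without any 1 of female or male injured replicates 2 and 3 or female or male media replicate 3, nor without the 4 libraries of other description numbers (0.11). Injured against uninjured BALF at 6 h gave a log2 fold change of -0.65 ± 0.14, or 1.57-fold lower (edgeR adjusted p = 0.0051), and this call held without each single library. With libraries 1 and 2 summed, the first of these 3 calls held, and the other two did not, at adjusted p = 0.083 for injured BALF against media and 0.26 for injured against uninjured BALF.

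From 6 to 24 h, Nuak2 fell by 1.16 ± 0.14 in uninjured BALF (edgeR adjusted p = 9.4e-07) and by 0.72 ± 0.14 in injured BALF (edgeR adjusted p = 4.0e-04), with no overlap of the 2 times in either. The media libraries gave -0.43 ± 0.14, not called (edgeR adjusted p = 0.062). That media value was called without any 1 of 4 media libraries, replicate 3 of either sex at 6 h and, at 24 h, female replicate 3 or male replicate 2 (adjusted p = 0.018 to 0.043). The change of the uninjured BALF effect from 6 to 24 h was -0.73 ± 0.20 and was not called (edgeR adjusted p = 0.053).

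Amotl1 (ENSMUSG00000013076.15, chr9:14541966-14645056, minus strand) and Amotl2 (ENSMUSG00000032531.15, chr9:102716672-102733418, plus strand) encode angiomotin family proteins, which bind YAP at cell junctions and on actin and hold it back. In media at 6 h Amotl1 ran from 199 to 248 CPM with a median of 226. Uninjured BALF gave 247 to 276 with a median of 264, and injured BALF 261 to 313 with a median of 295. Every injured BALF library at 6 h lay above every media library, while uninjured BALF and media met in 1 library each.

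At 6 h Amotl1 rose 1.29-fold over media in injured BALF, by 0.37 ± 0.06 (edgeR adjusted p = 7.6e-05), and the call held without each single library and with libraries 1 and 2 summed. In uninjured BALF the rise over media was 0.21 ± 0.06 (edgeR adjusted p = 0.021). It was not past the threshold with libraries 1 and 2 summed (adjusted p = 0.052) or without any 1 of female uninjured replicate 1, male uninjured replicates 1 and 3 and female and male media replicate 3 (0.051 to 0.069), nor without the 4 libraries of other description numbers (0.078) or the low-count filter (0.13). Injured against uninjured BALF at 6 h gave 0.16 ± 0.06, not called (edgeR adjusted p = 0.22). At 24 h the range was 224 to 268 CPM in media, 195 to 245 in uninjured BALF and 225 to 243 in injured BALF, with medians of 232, 227 and 232. No treatment difference of Amotl1 was called at 24 h. From 6 to 24 h it fell by 0.24 ± 0.06 in uninjured BALF (edgeR adjusted p = 0.0060) and by 0.33 ± 0.06 in injured BALF (3.1e-04), with no overlap of the times in either, while media gave 0.06 ± 0.06 (adjusted p = 0.63). The fall in uninjured BALF was not called without replicate 1 (0.19) or 3 (0.071).

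Amotl2 had its lowest levels in injured BALF at 24 h, where libraries ran from 302 to 430 CPM with a median of 339. Media at 24 h gave 426 to 502 with a median of 466, and uninjured BALF 334 to 505 with a median of 427. Only the highest injured BALF library reached the lowest media library, and injured and uninjured BALF overlapped. Female libraries of injured BALF at 24 h ran from 302 to 329 and male ones from 348 to 430.

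Against media at 24 h, Amotl2 in injured BALF was 1.32-fold lower, at -0.40 ± 0.08 (edgeR adjusted p = 4.4e-04), and the call held without each single library and with libraries 1 and 2 summed. Against uninjured BALF it was 1.22-fold lower, at -0.29 ± 0.08 (edgeR adjusted p = 0.029), with a difference of mean log2 levels of -0.28 in female and -0.30 in male libraries. This log2 fold change stayed at -0.32 to -0.24 without each single library, but the call did not always hold. It was not past the threshold (adjusted p = 0.053 to 0.12) without any 1 of female and male injured replicates 1 and 3 or female and male uninjured replicates 2 and 3, nor with libraries 1 and 2 summed (0.17), without the 4 libraries of other description numbers (0.11), without the low-count filter (0.084) or with only the groups compared (0.069). At 6 h the range was 338 to 497 CPM in media (median 476), 361 to 443 in uninjured BALF (410) and 409 to 502 in injured BALF (461), and injured against uninjured BALF gave 0.16 ± 0.08 (edgeR adjusted p = 0.36). From 6 to 24 h Amotl2 fell by 0.38 ± 0.08 in injured BALF (edgeR adjusted p = 7.0e-04) and was at 0.08 ± 0.08 in uninjured BALF and 0.05 ± 0.08 in media, neither called. The injury effect at 24 h minus that at 6 h was -0.45 ± 0.11 and was not called (edgeR adjusted p = 0.086), though it was without male injured BALF 6 h replicate 3 or female uninjured BALF 24 h replicate 1 (0.034 and 0.041). The pericyte marker sum was also lower in injured BALF at 24 h (687 to 1016 CPM) than in media (1342 to 2582), without overlap, and 5 of 10 tested pericyte markers were called lower there, against 12.2% of all genes. Their part in the Amotl2 value was not tested.

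Yap1 (ENSMUSG00000053110.13, chr9:7931999-8004596, minus strand) ran from 244 to 342 CPM in media at 6 h with a median of 317. The range was 259 to 313 in uninjured BALF (median 275) and 221 to 249 in injured BALF (246). The injured BALF libraries at 6 h all lay below the uninjured ones, while 1 media library, female replicate 3, lay within the injured range. Injured BALF was 1.25-fold below media, at -0.32 ± 0.10 (edgeR adjusted p = 0.017). The call was not past the threshold without female media 6 h replicate 1 (0.057) or with libraries 1 and 2 summed (0.16). Injured against uninjured BALF at 6 h gave -0.22 ± 0.10, not called (edgeR adjusted p = 0.31) although the libraries did not overlap.

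By 24 h the medians of Yap1 were 230 CPM in media, 255 in uninjured BALF and 252 in injured BALF, over ranges of 202 to 287, 200 to 277 and 191 to 269, and treatment differences lay between -0.03 and 0.05 on the log2 scale. Media libraries fell by 0.34 ± 0.10 from 6 to 24 h (edgeR adjusted p = 0.037), which was not past the threshold without any 1 of 7 of the 12 libraries: female media 24 h replicate 3, female media 6 h replicates 1 and 2, male media 24 h replicates 1 and 3, and male media 6 h replicates 1 and 2 (0.051 to 0.12), nor with libraries 1 and 2 summed (0.20) or without the 4 libraries of other description numbers (0.12).

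Wwtr1 (ENSMUSG00000027803.14, chr3:57455649-57575910, minus strand), the gene of TAZ, had group medians between 167 and 188 CPM and overlapped between all treatments at both times. Its treatment differences lay between -0.13 and 0.11 on the log2 scale, and the lowest adjusted p of the 6 was 0.48. Both coactivators differed from media by at most 1.25-fold in either BALF.

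Tead1 (ENSMUSG00000055320.17, chr7:112679318-112906807, plus strand), a DNA-binding partner of both, ran from 486 to 621 CPM in media at 6 h (median 568), 399 to 591 in uninjured BALF (501) and 393 to 534 in injured BALF (496). Media at 24 h gave 333 to 1152 with a median of 464, and injured BALF 282 to 468 with a median of 444. The value of 1152 belongs to female media 24 h replicate 1, and the next highest media library at 24 h held 572. Injured BALF against media at 24 h was -0.44 ± 0.20 (edgeR adjusted p = 0.12). It was -0.05 (adjusted p = 0.82) without female media 24 h replicate 1 and -0.58 (0.026, called) without female media 24 h replicate 3, so the value depended on which media library was left out.

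Lats2 (ENSMUSG00000021959.15, chr14:57689662-57758388, minus strand), the kinase that phosphorylates YAP and TAZ and is itself one of their targets, ran from 144 to 345 CPM in media at 6 h (median 292), 171 to 262 in uninjured BALF (245) and 145 to 238 in injured BALF (210). Injured BALF and media overlapped only through female media replicate 3, at 144 CPM. Injured BALF against media at 6 h was -0.48 ± 0.23 (edgeR adjusted p = 0.12), and -0.62 and called without that library (0.043). At 24 h group medians were 228, 224 and 225 CPM in media, uninjured and injured BALF.

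Ajuba (ENSMUSG00000022178.10, chr14:54567472-54577558, minus strand), a LIM protein that binds LATS kinases and restrains them, had group medians of 60.9 to 74.9 CPM and libraries from 39.5 to 98.5. Its groups overlapped in every comparison, with treatment differences between -0.18 and 0.05 and adjusted p of 0.60 or more.

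In the female groups, replicate 3 was the lowest library for Yap1, Wwtr1, Tead1, Lats2 and Amotl2 in 5 of 6 groups, the exception each time being uninjured BALF at 24 h, where replicate 1 was the lowest. Among male groups replicate 3 was the lowest in 6 of 6 for Wwtr1, 5 of 6 for Lats2, 4 of 6 for Yap1 and for Tead1, and 3 of 6 for Amotl2.

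Ankrd1 (ENSMUSG00000024803.8, chr19:36111961-36120099, minus strand) encodes a nuclear and sarcomeric ankyrin repeat protein and is among the most used readouts of YAP and TEAD activity. In media at 6 h it ran from 225 to 590 CPM with a median of 440. Uninjured BALF gave 202 to 694 (median 344) and injured BALF 278 to 830 (406). The groups overlapped over most of their range, and the spread within a group exceeded the difference between groups. At 24 h the ranges were 109 to 417 in media (median 230), 110 to 459 in uninjured BALF (251) and 119 to 467 in injured BALF (301).

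Injured against uninjured BALF gave 0.26 ± 0.37 at 6 h and 0.22 ± 0.37 at 24 h for Ankrd1, and injured BALF against media 0.09 ± 0.37 and 0.30 ± 0.37, with edgeR adjusted p of 0.60 or more. With a standard error of 0.37, a change well under 2-fold was not detectable here, and a 2-fold change might also be missed. The 3 treatments fell from 6 to 24 h by 0.80, 0.54 and 0.59 (each ± 0.37) in media, uninjured and injured BALF, and none was called (adjusted p = 0.19, 0.29 and 0.26). The libraries with the highest level, male injured BALF 6 h replicate 3 (830 CPM) and male uninjured BALF 6 h replicate 3 (694), also held the highest mesothelial marker sums of their groups, 228 and 255 CPM against 30.7 to 85.5 in the other 10. Their endothelial sums were 196 and 192 CPM, also the highest of their groups. Male media 6 h replicate 3, with 225 CPM of Ankrd1, held 18.4 and 10.3 CPM of these sums. At 24 h, female media replicate 3 held the highest mesothelial and endothelial sums of its group (103 and 136 CPM) but the lowest Ankrd1, at 109 CPM. Female uninjured BALF 24 h replicate 1 likewise held the highest sums of its group (87.7 and 142) and the lowest Ankrd1, at 110 CPM. In injured BALF at 24 h male replicate 3 held the highest sums (171 and 177), while the lowest Ankrd1 was in female replicate 3, at 119 CPM. The part of these markers in the level of Ankrd1 was not tested.

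Crim1 (ENSMUSG00000024074.7, chr17:78200248-78376592, plus strand), a transmembrane protein that binds growth factors of the BMP family, ran from 397 to 551 CPM in media at 6 h with a median of 485. Uninjured BALF gave 287 to 489 (median 353) and injured BALF 274 to 458 (339). 5 of 6 libraries of each BALF lay below every media library, and the exceptions were the male replicate 3 libraries, at 489 and 458 CPM, which also held the high mesothelial sums. Injured BALF was 1.40-fold below media, at -0.49 ± 0.13 (edgeR adjusted p = 0.0057), and the call held without each single library but not with libraries 1 and 2 summed (0.095).

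The pericyte marker sum also moved, from 1091 to 1914 CPM in media at 6 h to 1047 to 1457 in uninjured and 783 to 1288 in injured BALF. Of 10 tested pericyte markers, 1 was called lower in uninjured BALF (7.82% of all genes), and 4 lower and 1 higher in injured BALF (11.4% and 13.9% of all genes). The part of these markers in the 6 h values of the 10 genes was not tested.

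In uninjured BALF at 6 h Crim1 was 1.32-fold below media, at -0.40 ± 0.13 (edgeR adjusted p = 0.030). That call was not past the threshold without any 1 of female and male uninjured replicates 1 and 2, female media replicates 2 and 3 or male media replicates 1 and 2 (0.054 to 0.10), nor with libraries 1 and 2 summed (0.25). At 24 h the medians were 411 CPM in media, 398 in uninjured BALF and 338 in injured BALF, over ranges of 350 to 533, 323 to 444 and 272 to 420, and injured BALF against media was -0.33 ± 0.13, not called (edgeR adjusted p = 0.059).

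**Figure D3:**
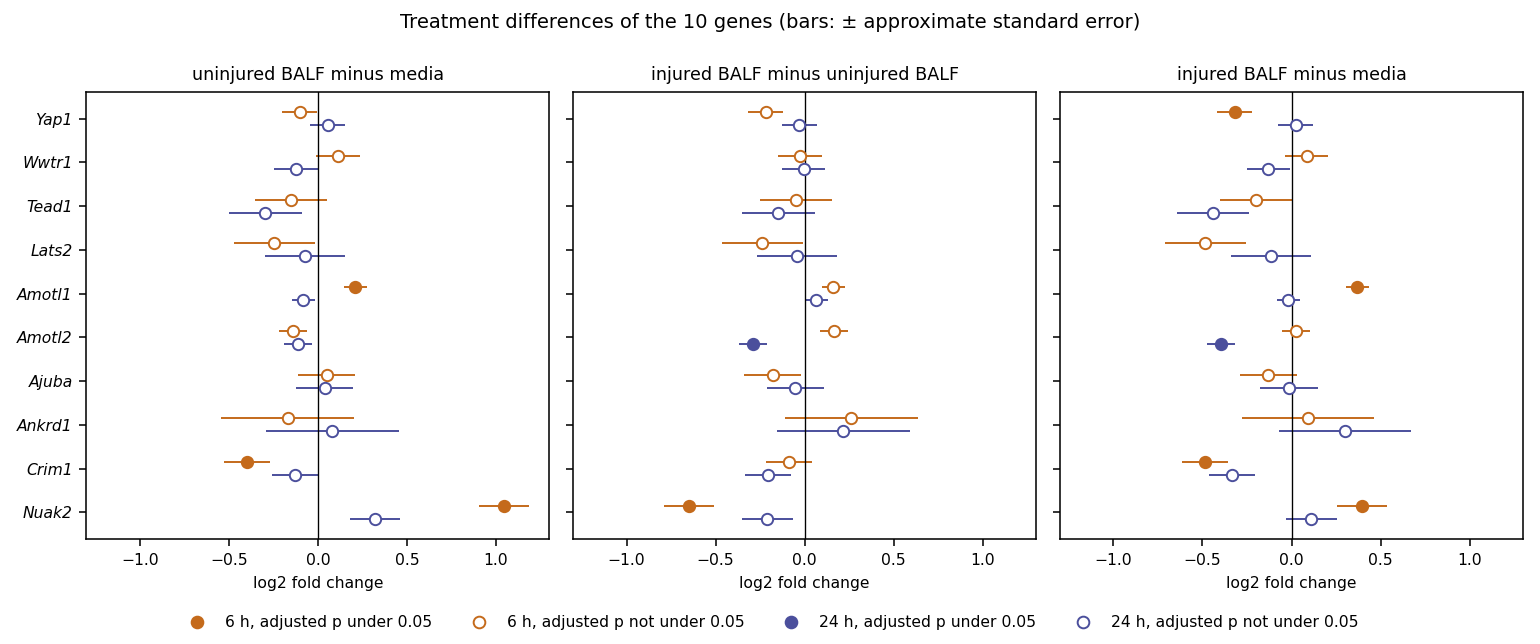
Log2 fold change ± approximate standard error (horizontal axes) of each gene in injured against uninjured BALF, uninjured BALF against media and injured BALF against media, at 6 and 24 h, with filled points at an adjusted p under 0.05. Nuak2 in uninjured BALF at 6 h (1.05) is the furthest from 0, and no filled point is present for uninjured BALF against media at 24 h.

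Counted by comparison, injured against uninjured BALF called 1 of the 10 genes at 6 h (Nuak2, lower) and 1 at 24 h (Amotl2, lower). Of all tested genes 3.43% were called at 6 h (1.97% higher, 1.46% lower) and 4.42% at 24 h (2.38% higher, 2.04% lower). Yap1 was the 1 gene whose libraries lay wholly below at 6 h, which 1.36% of all tested genes did. The median log2 fold change of the 10 was -0.07 at 6 h and -0.05 at 24 h, against 0.00 over all genes tested at both times.

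Uninjured BALF against media called 3 of 10 at 6 h, Nuak2 and Amotl1 as higher and Crim1 as lower, where 18.4% of all tested genes were called (10.6% higher, 7.82% lower). Nuak2 was the 1 gene without overlap upward, against 7.18% of tested genes. At 24 h edgeR called 0 of 10 where 0.868% of all genes were called (0.516% higher, 0.352% lower), and at an unadjusted p under 0.05 the count was 1, beside 1793 of all 15901 genes. The medians of the 10 were -0.12 and -0.08, against -0.01 and 0.00 over all genes.

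Injured BALF against media called 4 of 10 at 6 h, Amotl1 and Nuak2 higher and Yap1 and Crim1 lower, and 25.2% of all genes (13.9% higher, 11.4% lower). Amotl1 did not overlap, as 9.42% of all genes did upward. At 24 h 1 of 10 was called, Amotl2, where 23.7% of all genes were (11.5% higher, 12.2% lower). The medians were -0.05 and -0.07 against -0.01 and -0.01.

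From 6 to 24 h, 1 of 10 was called in media (Yap1), where 6.84% of all genes were (3.51% higher, 3.33% lower). In uninjured BALF 2 were called, Nuak2 and Amotl1, and 30.7% of all genes (15.2% higher, 15.5% lower). In injured BALF 3 were called, Nuak2, Amotl1 and Amotl2, and 27% of all genes (12.8% higher, 14.2% lower). All 6 calls were falls. 2 genes in each BALF, Nuak2 and Amotl1, did not overlap between the times, against 8.72% and 8.87% of all genes downward. The medians of the 10 were -0.22, -0.16 and -0.19, against 0.03, 0.02 and 0.01 over all genes.

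The change of an effect with time called 0 of 10 for injury (0.239% of all genes) and 0 of 10 for uninjured BALF against media (1.96%). At an unadjusted edgeR p under 0.05 the counts were 2 and 2, where 1236 and 2387 of all 15901 genes were under it. DESeq2 called 1 and 2 of the 10, and its counts over all genes are not given here. The difference between male and female effects called 0 of 10 and 0% of all genes in each of 4 comparisons, by edgeR and by DESeq2, with 0 of the 10 at an unadjusted p under 0.05.

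The other genes of the pathway were taken from 4 lists. Of their 44 calls between treatments, DESeq2 and a replicate block kept 44 each, fitting only the groups compared 35, the sum of libraries 1 and 2 24, and leaving out replicate 1, 2 or 3 20, 16 and 34. Without the 4 libraries of other description numbers 33 of the 42 calls concerned were kept. Of 14 genes of the kinase cassette and its upstream regulators, injured against uninjured BALF called 1 as higher at each time, where 1.97% of all genes were called higher at 6 h and 2.38% at 24 h. This was Map4k4, a kinase that can phosphorylate LATS. Its mean was 412 ± 54.1 CPM in media, 537 ± 42.3 in uninjured and 816 ± 79.1 in injured BALF at 6 h (mean ± SD, n = 6 each), and 406 ± 108, 447 ± 79.1 and 721 ± 33.0 at 24 h. Every injured BALF library lay above every uninjured one at both times, as in 1.97% and 1.06% of all genes tested at 6 and 24 h, by 0.60 ± 0.13 at 6 h (edgeR adjusted p = 0.0037) and 0.70 ± 0.13 at 24 h (0.0010). The calls held without each single library, and with libraries 1 and 2 summed the adjusted p was 0.091 and 0.025.

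Against media, injured BALF called 3 of the 14 as higher and 1 as lower at 6 h, near the 25.2% of all genes called there (13.9% higher, 11.4% lower). These were Map4k4 by 0.99 ± 0.13, Stk4 (the kinase MST1) by 0.51 ± 0.16 and Frmd6 by 0.33 ± 0.10, and Wwc2 (a KIBRA relative) at -0.53 ± 0.14. At 24 h, where 23.7% of all genes were called, it called 1 as higher, Map4k4 by 0.83 ± 0.13, and 3 as lower, Wwc1 (KIBRA) from 20.3 to 10.1 CPM, Frmd6 at -0.40 ± 0.10 and Taok3 at -0.39 ± 0.14. Frmd6, a scaffold of the cascade, was thus called above media at 6 h and below it at 24 h. The call at 24 h was lost without the 4 libraries of other description numbers (edgeR adjusted p = 0.051) and without replicate 2 or 3 (0.098 and 0.13). That at 6 h was lost without replicate 1 or 2 (0.062 and 0.22). Uninjured BALF at 6 h called Stk4 by 0.58 ± 0.16, Map4k4 by 0.38 ± 0.13 and Taok2 by 0.16 ± 0.05 as higher, where 10.6% of all genes were, and none at 24 h. With libraries 1 and 2 summed, Map4k4 in uninjured BALF, Taok2, Taok3, Wwc2 and Frmd6 at 6 h were not past the threshold, at adjusted p = 0.063, 0.12, 0.20, 0.073 and 0.078. Without 1 library the calls of Map4k4 and Taok2 in uninjured BALF were lost for 6 of 12 libraries each (p up to 0.10 and 0.099) and that of Taok3 for 9 (up to 0.32). Stk4 in injured BALF was lost without male injured replicate 3 (0.085) and Frmd6 at 6 h without female media replicate 3 (0.052).

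Of 6 other TEAD factors and Vgll cofactors, 5 were tested, and Vgll2 had too few counts. In injured against uninjured BALF, where 3.43% of all genes were called at 6 h and 4.42% at 24 h, none of the 5 was called at 6 h. At 24 h 1 was called, Tead2 by 0.36 ± 0.09 (edgeR adjusted p = 0.011). That call was lost without female uninjured BALF 24 h replicate 3 (0.054) and with libraries 1 and 2 summed (0.064). Injured BALF against media called 25.2% of all genes at 6 h and 23.7% at 24 h. In this comparison Tead3 was lower, at -0.64 ± 0.15 at 6 h and -0.56 ± 0.14 at 24 h (adjusted p = 0.060 with libraries 1 and 2 summed), and Tead2 was higher at 24 h by 0.30 ± 0.09. This Tead2 call was lost when only the groups compared were fitted (adjusted p = 0.068), without the 4 libraries of other description numbers (0.082) and without replicate 1, 2 or 3 (0.060 to 0.063). Tead4 rose over media in uninjured BALF at 6 h, from 6.53 to 11.6 CPM, by 0.82 ± 0.18 (edgeR adjusted p = 0.0020). Its libraries did not overlap, as in 7.18% of all genes upward, and 10.6% of all genes were called higher there.

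Of 5 other angiomotin and LIM proteins, none was called between the BALFs, where 3.43% of all genes were called at 6 h and 4.42% at 24 h. Limd1, a LIM protein of the Ajuba family, was higher than media at 6 h in uninjured BALF by 0.75 ± 0.11 (edgeR adjusted p = 1.5e-05) and in injured BALF by 0.62 ± 0.11 (7.5e-05), from 58.4 CPM in media to 98.3 and 90.0, with no overlap, as in 7.18% and 9.42% of all genes upward. Neither difference was called at 24 h. Wtip was lower in injured BALF at 6 h, at -0.53 ± 0.16, and was not called without female or male media replicate 2 (0.052 and 0.062) or with libraries 1 and 2 summed (0.12). At 24 h injured BALF lay below media for Zyx, a focal adhesion protein, at -0.57 ± 0.12 and above it for Trip6 by 0.23 ± 0.07 (adjusted p = 0.059 with libraries 1 and 2 summed).

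Of 17 other targets of YAP and TAZ, some were higher and others lower. Injured against uninjured BALF called 1 as lower at 6 h, Rbms3 at -0.48 ± 0.13, and 4 as lower and none as higher at 24 h. Of all genes, 1.46% were called lower at 6 h, and 2.04% lower and 2.38% higher at 24 h. The 4 were Ccdc80 at -0.97 ± 0.18, Tgfb2, the gene of the growth factor TGF-β2, at -0.88 ± 0.20, Rbms3, an RNA-binding protein, at -0.46 ± 0.13 and Asap1, a GTPase activator at focal adhesions, at -0.45 ± 0.11. With libraries 1 and 2 summed the adjusted p of the 4 was 0.060, 0.21, 0.22 and 0.045, and that of Rbms3 at 6 h 0.29. Rbms3 was not called without any 1 of 7 of 12 libraries at 6 h (p up to 0.13) and 8 at 24 h (up to 0.10), and Asap1 without male injured or female uninjured replicate 3 (0.059 and 0.071).

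Against media, injured BALF called 3 of the 17 targets as higher and 4 as lower at 6 h, and 2 as higher and 4 as lower at 24 h, where 25.2% and 23.7% of all genes were called. The median log2 fold change of the 17 was 0.08 at 6 h and -0.11 at 24 h, against -0.01 over all genes at both. At 6 h Igfbp3 was higher by 1.47 ± 0.37, Fjx1 by 0.75 ± 0.19 and Foxf2 by 0.40 ± 0.13, and Asap1 lower at -0.97 ± 0.11, Rbms3 at -0.82 ± 0.13, Tgfb2 at -0.75 ± 0.20 and Ccdc80 at -0.51 ± 0.18. At 24 h Axl, a receptor kinase, was higher by 0.28 ± 0.08 and Dock5 by 0.40 ± 0.14, and the lower ones were Tgfb2 at -1.71 ± 0.20, Ccdc80 at -1.43 ± 0.18, Rbms3 at -0.91 ± 0.13 and Asap1 at -0.69 ± 0.11. Tgfb2 went from 79.7 CPM in media to 23.9 in injured BALF at 24 h, and every injured library lay below every media library, as in 4.08% of all genes tested. With libraries 1 and 2 summed, Foxf2, Ccdc80 and Tgfb2 at 6 h and Dock5 at 24 h were not past the threshold (adjusted p = 0.070, 0.13, 0.054 and 0.099). Ccdc80 at 6 h was lost without any 1 of 5 of 12 libraries, Dock5 without 8, and Foxf2 without male media 6 h replicate 1 (0.057). Axl was lost when only the groups compared were fitted (0.12), without the 4 libraries of other description numbers (0.078), and without replicate 2 or 3 (0.12 and 0.061).

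Uninjured BALF against media called 1 of the 17 targets as higher and 1 as lower at 6 h, where 10.6% and 7.82% of all genes were. At 24 h it called 0 as higher and 1 as lower, where 0.516% and 0.352% of all genes were. These were Foxf2 higher by 0.41 ± 0.13 and Asap1 lower at -0.62 ± 0.11 at 6 h, and Tgfb2 lower at -0.83 ± 0.19 at 24 h. Tgfb2 there was not called without any 1 of 8 of 12 libraries (p up to 0.13) or with libraries 1 and 2 summed (0.67), and Foxf2 without any 1 of 3 (up to 0.065) or in that sum (0.10). Ccn2 and Ccn1, secreted matrix proteins and the most used targets of YAP beside Ankrd1, were called in no treatment comparison. Their levels in media, uninjured and injured BALF at 6 h were 3354 ± 1051, 3175 ± 443 and 3656 ± 450 CPM for Ccn2 and 1015 ± 210, 1057 ± 105 and 1142 ± 133 for Ccn1 (mean ± SD, n = 6 each). From 6 to 24 h in injured BALF, 6 of the 17 targets were called lower and 1 higher, where 14.2% and 12.8% of all genes were. Ccn2 fell by 1.15 ± 0.32 (edgeR adjusted p = 0.0087) and Ccn1 by 0.83 ± 0.25 (0.013). Fjx1, F3, Ccdc80 and Dock5 were also lower, at -1.16, -0.88, -0.64 and -0.40, and Asap1 was higher by 0.43. The Ccdc80 and Dock5 calls were lost with libraries 1 and 2 summed (0.13 and 0.075), and the Asap1 call without replicate 2 (0.083). The same times gave -0.67 ± 0.32 and -0.62 ± 0.32 for Ccn2 in media and uninjured BALF, and -0.49 ± 0.24 and -0.60 ± 0.24 for Ccn1, none of them called (edgeR adjusted p = 0.20, 0.15, 0.22 and 0.061). The difference in change over time between injured and uninjured BALF was called for 0 of the 17 targets, Ccn1 and Ccn2 among them (0.239% of all genes). That between uninjured BALF and media was also called for 0 of the 17 (1.96%), and injured BALF was not set against media in this way. In injured BALF the Ccn2 call was lost with libraries 1 and 2 summed (0.050) and without replicate 2 (0.11), and the Ccn1 call without replicate 1 (0.066) or 3 (0.12).

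**Figure D4:**
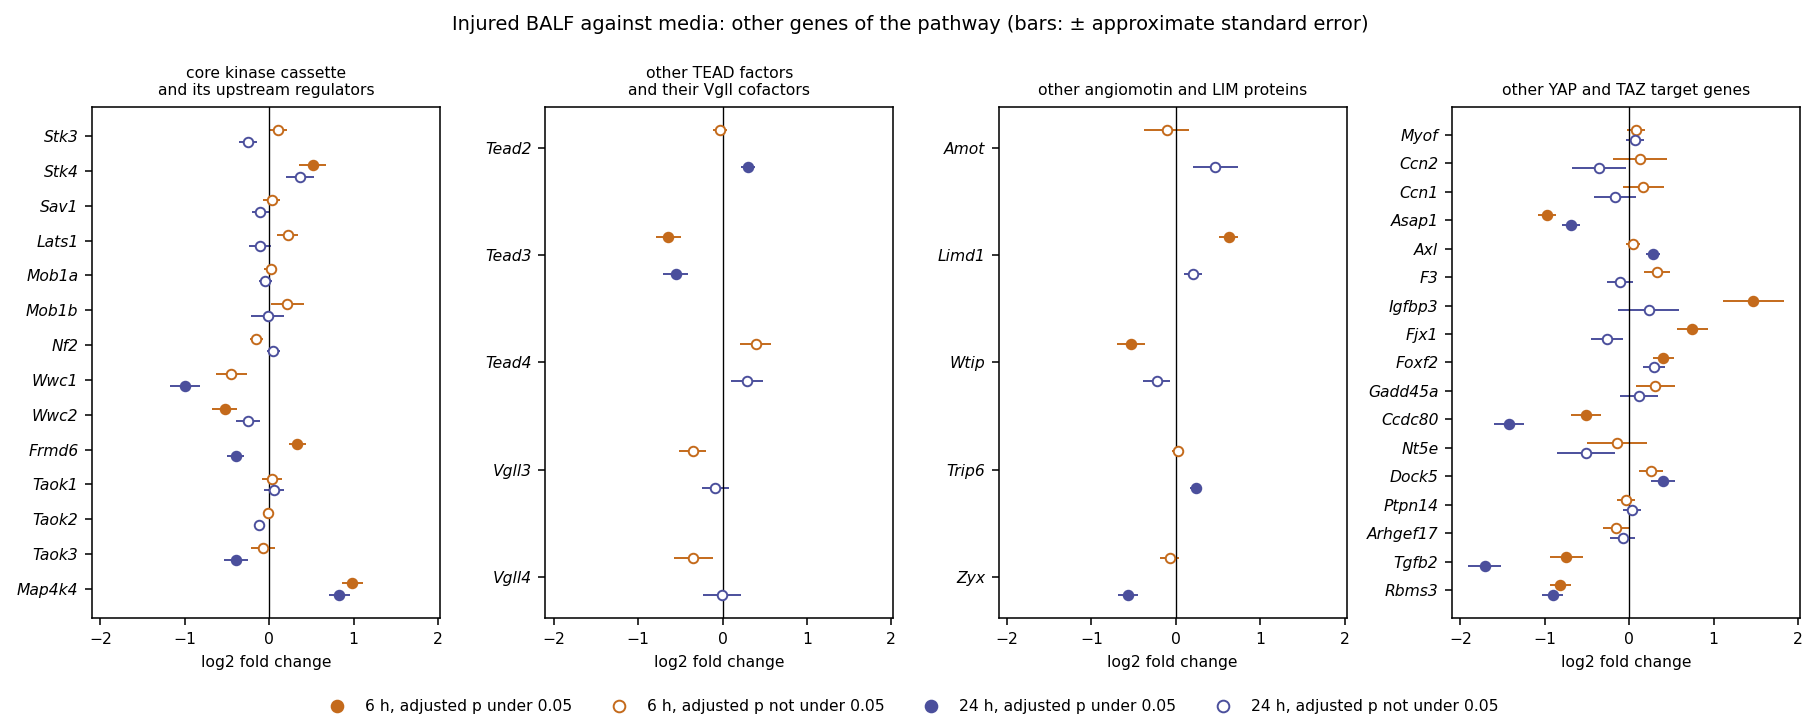
Log2 fold change ± approximate standard error in injured BALF against media for the other genes of the pathway in 4 panels, at 6 and 24 h, with filled points at an adjusted p under 0.05. Map4k4 lies furthest right among the kinases (0.99 and 0.83), and Tgfb2 furthest left among the targets at 24 h (-1.71).

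The 5 genes whose level followed that of Ankrd1 most closely over the 12 group means were Vdac2 (Pearson r = 0.95), Nedd1 (0.93), Vps54 (0.93), Siah2 (0.91) and Eif4g2 (0.91), picked as the highest among all genes of sufficient level. Of the other 9 genes described here Ajuba came closest at 0.69, followed by Yap1 at 0.55 and Nuak2 at 0.53. These values describe 12 means that share libraries and scaling, and carry no test.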

How the data were processed

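Counts per gene of 36 libraries were deposited by the authors as whole numbers, from stranded mRNA libraries per the labels. STAR 2.5.2b, RSEM 1.2.31, DESeq2 and the GRCm38 build are named per the submitters' processing notes, without their roles, so the counts may be rounded RSEM estimates. Identifiers were matched to GENCODE M21 (48349 of 48795, 99.1%).

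Tests used edgeR 4.0.16 (R 4.3.3) with TMM scaling (factors 0.874 to 1.092), the expression filter (15901 genes, at least 99.9% of any library's counts), and the quasi-likelihood test, fitted to every library at once by treatment, sex and time (24 residual degrees of freedom, coefficient of variation 22.5%). Treatment effects average both sexes. The test was tested on simulated counts.

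The 10 genes and all lists were chosen with earlier results of these data known. All 10 are named in every comparison. Of other pathway genes the rule names at most 4 called genes per list and treatment comparison, by lowest p. The time changes of Ccn1, Ccn2 and the other targets, and calls beyond the 4, were named after their values were seen. The 5 genes like Ankrd1 had at least 2 average log2 CPM.

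Same-numbered libraries deviated together, at a correlation over 0.1 in 6 of 6 pairs, only for injured against uninjured BALF at 6 h (0.333 to 0.654) and 24 h against 6 h in injured BALF (0.228 to 0.593).

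Alternatives were DESeq2 1.42.0, other scaling, no filter, a replicate block, fitting only the groups compared, summing libraries 1 and 2, and leaving out libraries.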

Additional observations from a re-analysis of the deposited data

Results flagged for a closer look

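In 60 sets of 6 libraries (10 genes in 6 groups), 4 held a library whose distance from the nearest other one was large for the range of its group, and chance flags about 1 in 20 such sets. 3 of the 4 are the same library, female media 24 h replicate 1, which also had 3.87% mitochondrial counts. There Tead1 was at 1152 CPM, against 333 to 572 in the other 5 media libraries at 24 h. Wwtr1 was at 257 CPM against 148 to 184, and Amotl1 at 268 against 224 to 235. The other was Wwtr1 in female injured BALF 6 h replicate 3, the lowest of its group at 142 CPM, against 177 to 199.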

How the results depend on the processing

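Of 16 calls of the 10 genes, 16 were kept by DESeq2, 16 with RLE scaling, 12 without the low-count filter, 16 with a replicate block, 14 when only the groups compared were fitted, 8 with libraries 1 and 2 summed, and 7, 8 and 12 without replicate 1, 2 and 3. Without the 4 libraries of differing description number 8 of the 12 calls concerned were kept. DESeq2, the block and leaving out replicate 3 added 4, 3 and 3 calls. No call of the 10 genes changed direction under these alternatives. The count of genes called rose with DESeq2 from 1 to 2 for 24 h against 6 h in media, from 0 to 1 for the change of the injury effect and from 0 to 2 for that of the uninjured BALF effect. Under the replicate block these 3 counts were 2, 1 and 1, and the block changed no call where numbers pair. Injured against uninjured BALF at 24 h, and 24 h against 6 h in media, each went from 1 to 0 without the filter, with only the groups compared, without the 4 libraries and with libraries 1 and 2 summed. The sum also gave 0 in place of 1 for injured against uninjured BALF at 6 h, 1 in place of 3 for uninjured BALF against media at 6 h and 1 in place of 4 for injured BALF against media at 6 h. Leaving out a library or a replicate number gave 0 to 1 for the injured against uninjured BALF contrasts and for the change of the injury effect, 1 to 3 for uninjured BALF against media at 6 h, 0 at 24 h, 1 to 4 and 1 to 2 for injured BALF against media at 6 and 24 h, 0 to 2, 1 to 2 and 3 for time in media, uninjured and injured BALF, 0 to 2 for the change of the uninjured BALF effect, and 0 for the 4 differences between sexes. The cause of these changes was not tested, beyond fewer libraries entering the fits that leave some out. The least-read of the 10 genes held 181 counts or more in each library, and what depth limits was not tested.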
